A study of Mus musculus with 128 samples.

Results

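The clustered histone genes encode the linker histone H1 and the core histones H2A, H2B, H3 and H4 from 4 genomic clusters of the mouse. They were chosen by symbol, as every gene whose name starts with Hist1h, Hist2h, Hist3h or Hist4h and is not marked as a pseudogene, which gave 67 of the 41300 genes in the table. They comprise 6 H1, 18 H2A, 18 H2B, 12 H3 and 13 H4 genes, with 54 in the Hist1 cluster on chromosome 13, 10 in Hist2 on chromosome 3, 2 in Hist3 on chromosome 11 and 1 in Hist4 on chromosome 6. PolyA RNA of single C57BL/6 mouse oocytes and embryos was amplified with SMART-Seq and sequenced. Kdm4a encodes a histone demethylase that acts on methylated H3, and the study compared oocytes and embryos of Kdm4a knockout mothers, given as m-/p-, with those of wildtype mothers, given as m+/p-. Both kinds of egg were fertilized with Kdm4a knockout sperm, so the wildtype embryos also carried a knockout paternal allele. Each genotype had 16 labelled libraries of MII oocytes (eggs arrested at metaphase of the second meiotic division), of 2-cell embryos 1.5 days after fertilization, of 4-cell embryos at 2.5 days and of 8-cell embryos at 3.5 days. Knockout and wildtype embryos were sampled together at 4 and 8 cells, timed by the controls. The labels do not say how many mothers the eggs came from, so p-values measure the spread between these libraries.

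Most clustered histone genes are replication-dependent: in most cells they are transcribed in S phase to wrap the newly copied DNA. Their mRNAs are known for ending in a stem-loop in place of a polyA tail, which the stem-loop binding protein SLBP holds for processing and translation. Oocytes store histone mRNA and protein for the first divisions, and transcripts that carry a tail or an inner run of A are the ones that priming from polyA can copy, so levels in these libraries need not follow the whole histone mRNA pool.

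The 16 bases of the stem-loop were searched for in the transcripts that GENCODE M21 annotates on mm10, as they set which of these mRNAs can lack a tail. They were found in 46 of the 67 members, within the last 100 bases in 23 of them, against 0 of 58725 other protein-coding transcripts for the last 100 bases. A further 11 members are annotated by their coding sequence alone. The most frequent form, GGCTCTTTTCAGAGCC, was found in 26 members of all families other than H4. In most H4 genes the outer stem reads GGCC, with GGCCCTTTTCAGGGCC in 7 members and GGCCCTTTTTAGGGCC in 2 (Hist1h4i and Hist2h4). Below are the sites of 5 abundant members, 5′ to 3′ on the strand of the gene, with the stem-loop in capitals; the first pair holds an uninterrupted run of A directly before the stem.
Hist1h2ap: aaaaaaaaaaGGCTCTTTTCAGAGCCatc
Hist1h2ao: aaaaaaaaaaGGCTCTTTTCAGAGCCatcc
Hist1h4i: gctacttaaaGGCCCTTTTTAGGGCCacca
Hist1h4d: aaaaaccaaaGGCCCTTTTCAGGGCCacta
Hist1h3f: aaaccaaaacGGCTCTTTTAAGAGCCacct
Hist1h2ap lies on the minus strand at chr13:21833026-21833507 and Hist1h2ao on the plus strand at chr13:21810465-21810944. Hist1h4i lies on the minus strand at chr13:22040636-22041362, Hist1h4d on the plus strand at chr13:23581598-23582735 and Hist1h3f on the plus strand at chr13:23544052-23545312. After the stem-loop the annotated transcript runs on for 3 bases in Hist1h2ap and 31 in Hist1h2ao. In Hist1h4i it runs on for 330 bases, in Hist1h4d for 770 and in Hist1h3f for 365, so these sites stand away from the annotated end. The run of A reached 12 bases in the transcripts of Hist1h2ap and Hist1h2ao. A run of at least 10 was found in 4 of the 67 members, Hist1h2ac and Hist1h2be being the other ones, against 9.27% of the other protein-coding transcripts. The polyA signal AATAAA stood in the last 40 bases of 15 of 67 members, against 39.3% of the others.

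Of the 128 libraries, 127 were used, with 528377 to 4657857 counts each (median 2130015); 8-cell knockout replicate 4 held 419 counts and was left out. The deepest and the shallowest library allow a level of up to 0.644 and 5.68 CPM (the count scaled by the total of its library) where a gene has 0 counts, taken as 3 counts and covering counting error only. Kdm4a averaged 1.27 ± 0.904 CPM in knockout and 10.9 ± 3.05 CPM in wildtype MII oocytes (SD, n = 16 each), with no overlap, and 1.99 ± 2.22 CPM in knockout and 1.31 ± 1.16 CPM in wildtype 8-cell embryos (n = 15 and 16). All 8 oocyte markers were present in MII oocytes, summing to 2648 to 16527 CPM in knockout and 10395 to 14056 CPM in wildtype libraries. The lowest of these values belongs to MII knockout replicate 15, whose other knockout libraries lay at 12058 CPM or more. In the other direction, 8-cell knockout replicate 7 held 2891 CPM of these markers against at most 127 CPM in the other 8-cell knockout libraries, and 4-cell knockout replicate 15 held 765 CPM against at most 211 CPM. Of 9 markers of cumulus and granulosa cells, which surround the oocyte, 4 had a count in MII oocytes and summed to 50.4 to 119 CPM in knockout and 64.4 to 117 CPM in wildtype libraries; Amh was at 0 in all 8 groups.

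Clustered histone transcripts were scarce in these libraries, and the genes that supplied them differed between the stages. H2B made up most of the signal in MII oocytes, through 1 gene, Hist1h2bc. At the 2-cell stage H2B still led, with 49.9% of the signal in knockout and 40.2% in wildtype, and the rest was spread over the other families. Hist1h2bc alone held 31.6% in knockout and 17.9% in wildtype 2-cell embryos. At the 4- and 8-cell stages a group of H2A genes led. Summed over the 67 genes, the level was 83.5 ± 33.1 CPM in knockout and 58.2 ± 27.5 CPM in wildtype MII oocytes, 30.9 ± 7.78 and 31.8 ± 6.59 CPM in knockout and wildtype 2-cell embryos, 37.7 ± 17.6 and 40.7 ± 18.7 CPM in knockout and wildtype 4-cell embryos, and 22.2 ± 12.1 and 31.5 ± 17.4 CPM in knockout and wildtype 8-cell embryos. The ranges of the genotypes overlapped at each of the 4 stages. H2B held 88.3% of the summed level in knockout and 82.9% in wildtype MII oocytes, but 10.3% in knockout and 23.2% in wildtype 4-cell embryos. H2A held 5.73% in knockout and 8.57% in wildtype MII oocytes, and 65.1% in knockout and 46.6% in wildtype 4-cell embryos. CPM is a share of each library's counts, so these values give no amount of histone mRNA per embryo or per cell.

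**Figure D1:**
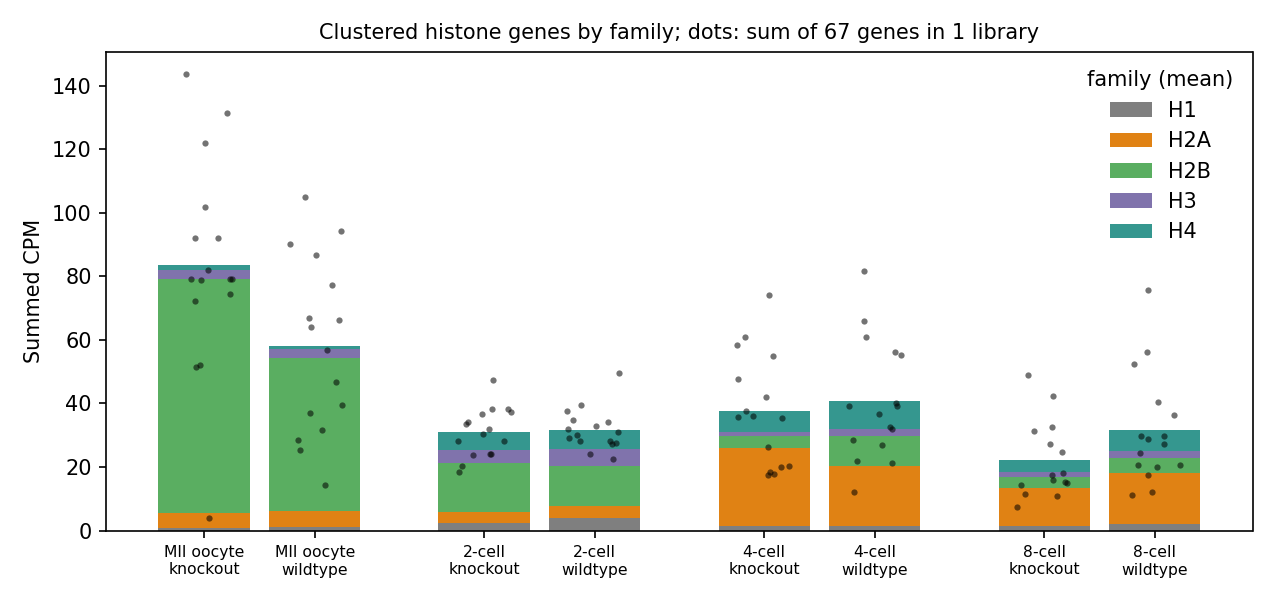
Summed CPM of the clustered histone genes by group, with the mean of each family stacked in the bars (H1 at the bottom, H4 on top) and each dot the sum of all 67 genes in 1 library. H2B fills most of the bar in MII oocytes and H2A most of it in 4-cell knockout embryos.

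Only 7 members averaged more than 1 CPM over all libraries, and 10 had a count, or a part of one, in 10 libraries or fewer. After rounding to whole counts, 37 members had a count in knockout and 43 in wildtype MII oocytes, 59 and 60 in knockout and wildtype 2-cell embryos, 45 and 52 in knockout and wildtype 4-cell embryos, and 51 and 50 in knockout and wildtype 8-cell embryos. The 8 members with the highest mean were Hist1h2bc (18.6 CPM), Hist1h2ap (3.94), Hist1h2ao (1.73), Hist1h4i (1.52), Hist1h2an (1.33), Hist1h2aa (1.2), Hist1h3f (1.13) and Hist1h4d (0.875 CPM). Per kilobase of transcript, Hist1h2bc was the highest member in knockout (62.9 CPM per kb) and wildtype (40.3) MII oocytes and in both genotypes at the 2-cell stage, and Hist1h2ap was the highest in both genotypes at the 4- and 8-cell stages, with 21 CPM per kb in knockout and 17.5 CPM per kb in wildtype 4-cell embryos. Of the members' non-zero values, 68.7% were not whole numbers, against 30.6% over all genes, and the source of these fractions was not tested. Near-identical copies can share reads, and at least 1 other annotated transcript held a median of 34.3% of a member's 100-base stretches. The split of reads between such copies is therefore uncertain, and most of all in H2A, where the median was 64.5%.

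**Figure D2:**
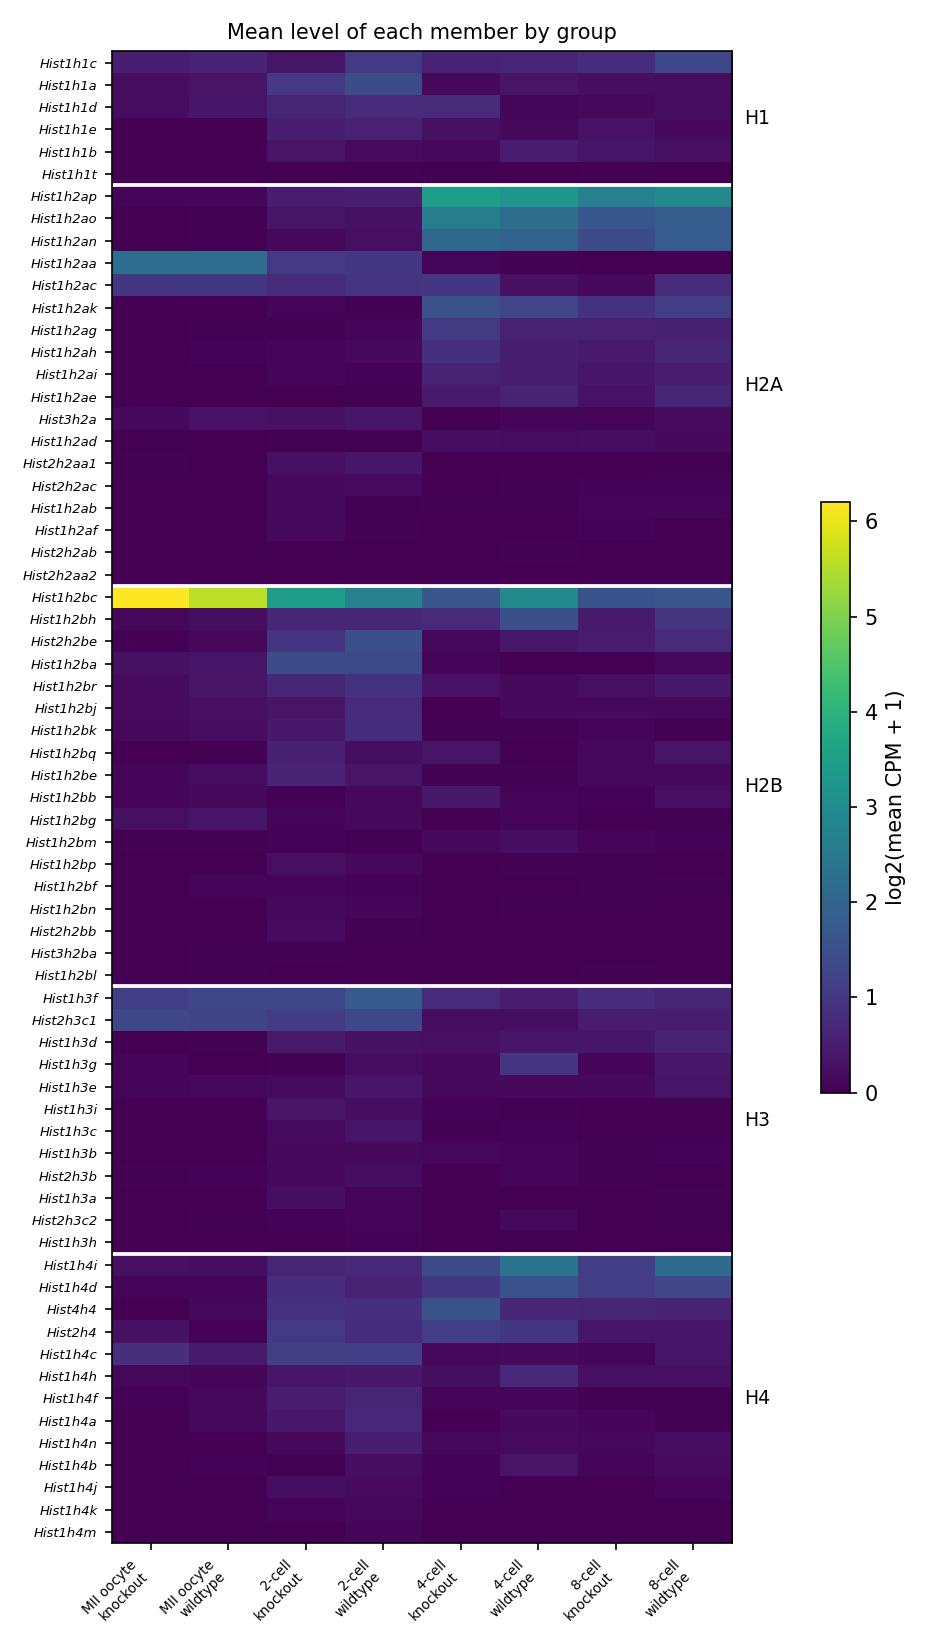
Mean level of each of the 67 members (rows, grouped by family) in the 8 groups (columns, knockout left of wildtype at each stage), as log2(mean CPM + 1). Hist1h2bc stands out in MII oocytes, and Hist1h2ap, Hist1h2ao and Hist1h2an in 4- and 8-cell embryos; most other rows stay near 0.

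Between successive stages of the wildtype, Hist1h2bc and Hist1h2aa fell from the oocyte to the 2-cell embryo, and Hist1h2bc fell again from the 4-cell to the 8-cell embryo. Stage changes were called with edgeR where the adjusted p was under 0.05 and the log2 fold change at least 1 in size. With edgeR's own filter on low counts, 1 member was tested between MII and 2 cells and it fell, where 19.2% of 10240 genes fell and 31.9% rose. Between 2 and 4 cells 2 members were tested and 1 rose, where 30.5% of 10766 genes rose and 43.9% fell. Between 4 and 8 cells 2 were tested and none was called, nor by DESeq2, with none at an unadjusted p under 0.05; 9.32% of 8822 genes rose and 11.3% fell. A looser filter, at least 1 CPM in 8 libraries of the fit, admitted 16, 22 and 17 members at the 3 steps. With it 5 members rose and 2 fell from MII to 2 cells, where 40.6% of all genes rose and 15.2% fell. From 2 to 4 cells 7 rose and 10 fell, where 23.7% of all genes rose and 45.4% fell. From 4 to 8 cells 1 fell and none rose, where 10.4% fell and 8.19% rose. A low gene that passes a filter through 1 stage alone has to differ from the other stage, and this holds for all the calls other than those of Hist1h2bc and of Hist1h2aa from MII to 2 cells, which passed the looser filter within the lower stage too. The counts therefore say nothing about the members, and the log2 differences of the other genes are given below with their SE as descriptions, without a p. Count ratios below are given only for called members with 3 counts or fewer in 1 wildtype group. An interval or floor that keeps away from equal levels follows from that choice and tests nothing. These ratios pool the libraries of a group, so their intervals leave out the spread between libraries. The median change over all genes tested was -0.48 (log2) from 2 to 4 cells with TMM scaling and -0.76 with RLE size factors, and 0.21 and 0.33 from MII to 2 cells, so the values below are read against these.

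Hist1h2bc, an H2B gene on the plus strand at chr13:23684199-23692908, was the most abundant clustered histone transcript of the oocyte. Its annotated transcript has 2 exons and no stem-loop. It had 1.49, 70.8 and 125 CPM (lowest, median and highest) in knockout and 9.38, 51.5 and 87.3 CPM in wildtype MII oocytes. In 2-cell embryos it had 3.28, 8.77 and 17.5 CPM in knockout and 0, 5.64 and 10.7 CPM in wildtype. In 4-cell embryos it had 0, 1.38 and 11.2 CPM in knockout and 0, 6.08 and 16.2 CPM in wildtype. The ranges overlapped at each stage, yet 13 of 16 knockout oocytes and 15 of 16 knockout 2-cell embryos lay above the wildtype median, while 15 of 16 knockout 4-cell embryos lay below it. At 8 cells both genotypes were low, at 1.94 ± 1.92 CPM in knockout and 2.18 ± 2.48 CPM in wildtype. Wildtype 2-cell embryos held less than wildtype MII oocytes, with a log2 fold change of -3.43 (SE 0.31, adjusted p = 6.12e-16). Wildtype 4-cell and 2-cell embryos differed by -0.07 (SE 0.40, adjusted p = 0.875), and wildtype 8-cell embryos held less than 4-cell embryos under the looser filter, by -1.46 (SE 0.54, adjusted p = 0.0358).

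**Figure D3:**
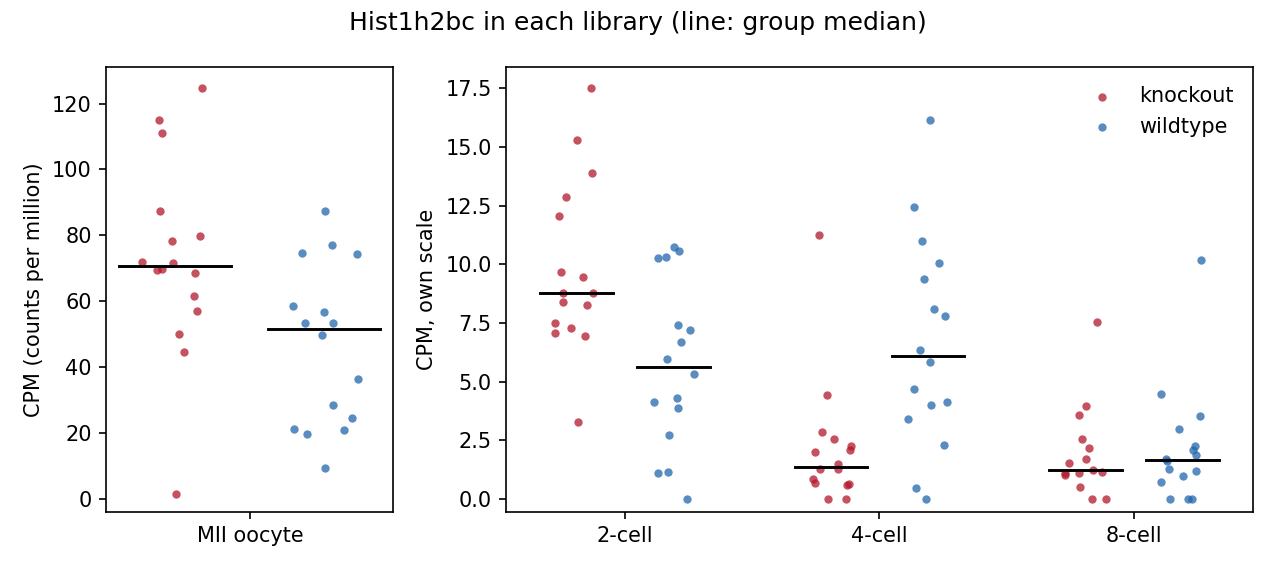
CPM of Hist1h2bc in each library, knockout left of wildtype at each stage, with the group median as a line; MII oocytes have their own axis. The knockout median is above the wildtype one in MII oocytes and at 2 cells, and below it at 4 cells (1.38 against 6.08 CPM).

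The difference between genotypes in Hist1h2bc changed between the 2-cell and the 4-cell stage. The interaction of genotype and stage was -2.37 on the log2 scale (SE 0.59, adjusted p = 0.00343), and it was called under each of the settings run. The 4-cell knockout median lay within the 1.12 to 2.06 CPM that 3 counts make in those libraries, so the size of the interaction is uncertain. Fits on replicate numbers 1 to 8 or 9 to 16 alone were run for the genotype comparisons only, not for the interaction. Of 2 members tested for it, this was the 1 called, where 15.5% of all genes were; under the looser filter it was again 1 of 22, where 9.98% were. Within stages the difference was less firm. Knockout over wildtype was 0.64 at MII (SE 0.28, adjusted p = 0.146) and 0.81 at 2 cells (SE 0.30, adjusted p = 0.0555), not called by edgeR at either stage; DESeq2 called the 2-cell value (0.82, adjusted p = 0.0260). MII knockout replicate 15, with 1.49 CPM against 44.5 to 125 CPM in the other 15 knockout oocytes, decides the MII call: without it the difference was 0.74 (SE 0.23, adjusted p = 0.0241). At 4 cells the gene passed the looser filter alone, with -1.58 (SE 0.52, adjusted p = 0.0450), and this call was lost without 4-cell knockout replicate 15 (-1.60, adjusted p = 0.0513). At 2 cells the difference was 0.38 among replicate numbers 1 to 8 and 1.32 among 9 to 16, neither called. The interaction from MII to 2 cells was 0.16 (SE 0.40, adjusted p = 0.887); it was not called for the 1 member tested, none was at an unadjusted p under 0.05 and DESeq2 called none, where 3.99% of all genes were called, nor for any of 16 under the looser filter, where 1.88% were. From 4 to 8 cells none of 2 was called by edgeR or DESeq2, with none at an unadjusted p under 0.05, where 2.73% of all genes were, 188 higher and 53 lower (401 and 83 with RLE size factors, 170 and 109 with DESeq2).

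Sums of stage markers also differed between the genotypes, though not for each list at each stage. All 7 genes of a list that is switched on at 2 cells had counts in 2-cell embryos, summing to 770 to 3711 CPM (median 1411) in knockout and 1192 to 4860 CPM (median 2649) in wildtype. In 4-cell embryos this list had medians of 24.7 CPM in knockout and 13.4 CPM in wildtype. The oocyte markers had medians of 5835 CPM in knockout and 5864 CPM in wildtype 2-cell embryos. All 8 oocyte markers had counts in 4-cell embryos, summing to 71.3 to 765 CPM (median 124) in knockout and 15.4 to 198 CPM (median 60.1) in wildtype. Their part in the Hist1h2bc differences was not tested.

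The other 17 H2B genes together reached 1.05 ± 0.832 CPM in knockout and 1.68 ± 1.16 CPM in wildtype MII oocytes, and 5.68 ± 2.40 CPM in knockout and 7.08 ± 3.04 CPM in wildtype 2-cell embryos. At 4 cells they stood at 1.76 ± 1.45 CPM in knockout and 2.84 ± 2.32 CPM in wildtype. Hist1h2ba, which encodes the testis and egg variant TH2B, was their clearest 2-cell member. It had 0, 0.131 and 0.663 CPM in knockout and 0, 0.308 and 0.730 CPM in wildtype MII oocytes. In 2-cell embryos it had 0, 1.31 and 4.63 CPM in knockout and 0, 1.65 and 3.89 CPM in wildtype, so most 2-cell libraries lay above the oocytes of their genotype. The wildtype log2 difference of 2 cells over MII was 1.89 (SE 0.46). All 16 wildtype 4-cell libraries were at 0 after 55 counts at 2 cells, so the 4-cell level was at least 17.8-fold lower, with the floor taken as 3 counts over the group. For Hist2h2be the difference was 3.29 (SE 0.66) for 2 cells over MII and -2.52 (SE 0.72) for 4 cells over 2 cells, and for Hist1h2br the second was -2.61 (SE 0.57). These members, and others named from the looser filter, were chosen after their values were seen.

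Hist1h2aa, which encodes the H2A partner TH2A, lies next to Hist1h2ba on the opposite strand. Its 100-base stretches occur in no other annotated transcript, yet 63.1% of its non-zero values were not whole numbers, so its reads may still be shared. It had 0, 3.17 and 8.25 CPM in knockout and 1.88, 3.68 and 5.73 CPM in wildtype MII oocytes. In 2-cell embryos it had 0, 0.907 and 2.61 CPM in knockout and 0, 1.03 and 1.73 CPM in wildtype. The genotypes overlapped throughout, with a difference at MII of 0.00 (SE 0.31, adjusted p = 0.997). From wildtype oocytes to 2-cell embryos it fell with -2.38 (SE 0.37, adjusted p = 3.61e-08, looser filter). Wildtype 4-cell embryos held 1 count against 32 at 2 cells, a ratio of 2-cell to 4-cell levels of 31.1 (exact 95% interval 5.20 to 1267, counting error only). No count was left at 8 cells in either genotype.

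The promoters of this pair are shown because they share sequence while Hist1h2aa was highest in the oocyte and Hist1h2ba at 2 cells. The RefSeq windows, from 250 bases before to 50 after the start (GRCm38.p6), overlap by 220 of 300 bases on opposite strands, at chr13:23934187-23934406. Hist1h2aa is given on the plus strand at chr13:23934187-23934486 and Hist1h2ba on the minus strand at chr13:23934107-23934406. Capitals mark the box CCAAT, the box spelled TATAAA, and the octamer ATTTGCAT that POU factors bind, each also where its reverse complement stands; matches may overlap.
Hist1h2aa: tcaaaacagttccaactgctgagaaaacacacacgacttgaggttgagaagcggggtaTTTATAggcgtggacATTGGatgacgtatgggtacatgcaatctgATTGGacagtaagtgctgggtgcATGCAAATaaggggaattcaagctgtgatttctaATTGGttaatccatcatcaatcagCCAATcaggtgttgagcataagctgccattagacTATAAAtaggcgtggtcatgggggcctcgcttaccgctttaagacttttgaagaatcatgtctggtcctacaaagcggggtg
Hist1h2ba: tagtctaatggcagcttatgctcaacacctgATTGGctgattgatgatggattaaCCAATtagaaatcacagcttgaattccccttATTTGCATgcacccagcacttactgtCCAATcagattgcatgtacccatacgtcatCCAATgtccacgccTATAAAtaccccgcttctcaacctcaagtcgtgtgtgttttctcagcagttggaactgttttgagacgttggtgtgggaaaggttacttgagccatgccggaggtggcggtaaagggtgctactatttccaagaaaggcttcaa
Promoters were matched for 62 of the 67 members. CCAAT was found in 53 of them (85.5%), against 37.4% of the 32851 promoters in the table, and TATAAA in 35 (56.5%) against 13.6%. ATTTGCAT was found in 13 (21%) against 1.74%, of which 7 were H2A and 6 were H2B genes. Of 12 H4 promoters, 3 held CCAAT. A match describes letters in this window and no more.

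The H2A genes Hist1h2ag, Hist1h2ah, Hist1h2ai, Hist1h2ak, Hist1h2an, Hist1h2ao and Hist1h2ap, all in the Hist1 cluster, held most of the H2A level at 4 cells. By sequence Hist1h2ak stands apart, with 10.5% of its 100-base stretches shared against 76.2% to 92.7% in the other ones, though 96.1% of its non-zero values were not whole either. These 7 were grouped after their values were seen. Summed, they stood at 0.0679 ± 0.130 CPM in knockout and 0.134 ± 0.224 CPM in wildtype MII oocytes, and at 0.920 ± 0.688 CPM in knockout and 1.08 ± 1.19 CPM in wildtype 2-cell embryos. They reached 22.7 ± 14.4 CPM in knockout and 17.8 ± 11.5 CPM in wildtype 4-cell embryos, and 11.3 ± 9.37 CPM in knockout and 14.2 ± 12.5 CPM in wildtype 8-cell embryos. At 4 cells they made up 92.7% of the H2A signal in knockout and 93.7% in wildtype. The lowest 4-cell sums, 6.12 CPM in knockout and 5.53 CPM in wildtype, lay above the highest 2-cell ones, 2.85 CPM in knockout and 4.45 CPM in wildtype. As the 7 were grouped with these values known, this separation is a description only, and its share over all genes was not counted.

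Hist1h2ap was the highest of these 7, with 92.2% of its 100-base stretches shared with other transcripts and 95.8% of its non-zero values not whole. It had 0, 0.436 and 1.49 CPM in knockout and 0, 0.402 and 1.65 CPM in wildtype 2-cell embryos. In 4-cell embryos it had 2.58, 9.76 and 26.5 CPM in knockout and 2.31, 6.55 and 19.9 CPM in wildtype, above all 2-cell libraries. In 8-cell embryos it had 0.598, 4.32 and 13.8 CPM in knockout and 0.746, 4.08 and 19.9 CPM in wildtype, a spread of more than the distance between the genotypes. The wildtype log2 difference of 4 over 2 cells was 3.86 (SE 0.44), where the median over all genes was -0.48. The gene passed the filter through the 4-cell libraries, so its separation from the 2-cell ones is a description too. Knockout over wildtype was 0.26 at 4 cells (SE 0.31, adjusted p = 0.620), and its interaction with the step from 2 to 4 cells was 0.29 (SE 0.67, adjusted p = 0.822).

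**Figure D4:**
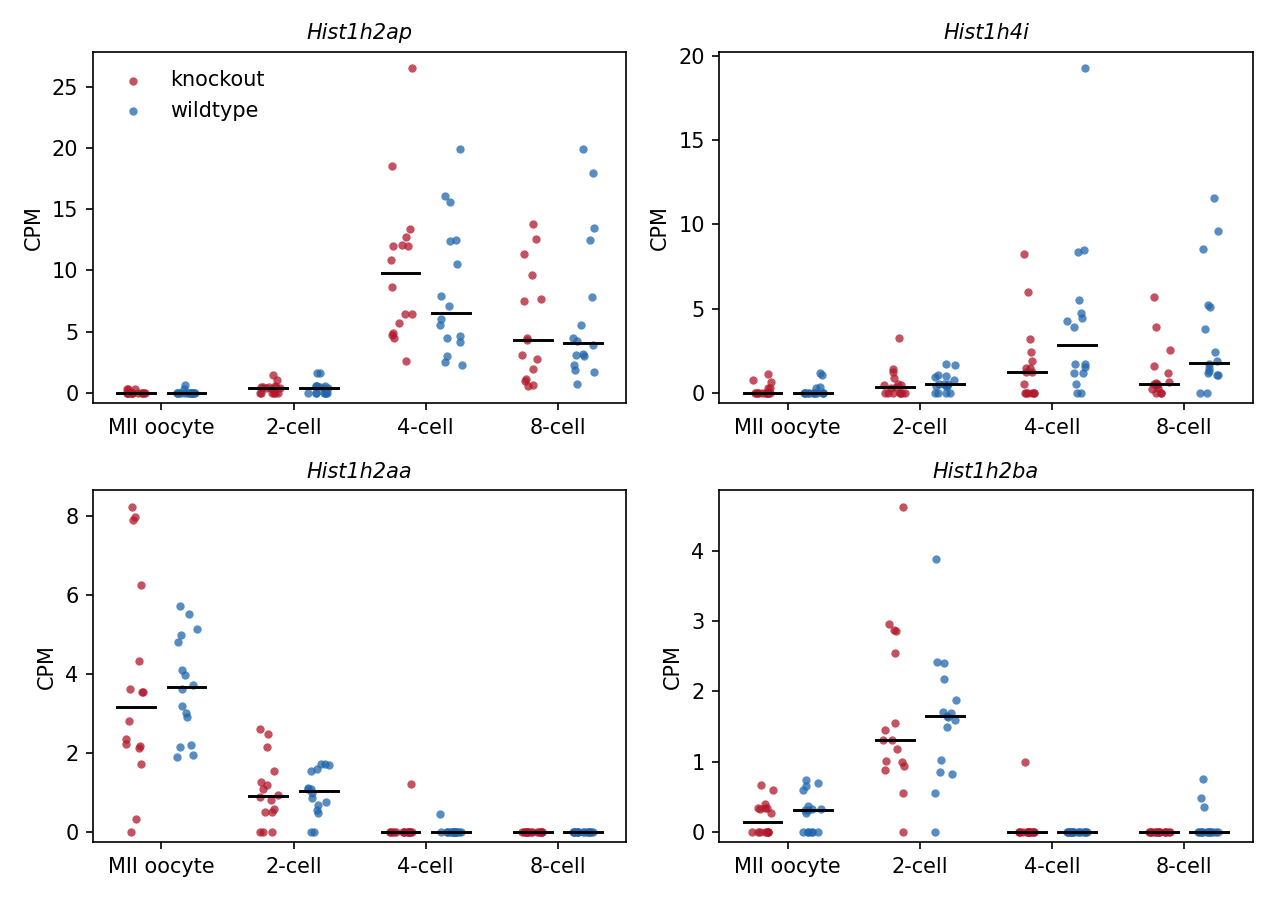
CPM in each library of an H2A gene of the 4-cell group (Hist1h2ap), an H4 gene (Hist1h4i) and the neighbours Hist1h2aa and Hist1h2ba, with knockout left of wildtype at each stage and lines at group medians. Each gene has its own axis; Hist1h2aa is highest in MII oocytes, Hist1h2ba at 2 cells and Hist1h2ap at 4 cells.

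Hist1h2ao followed at 5.12 ± 3.26 CPM in knockout and 3.62 ± 2.36 CPM in wildtype 4-cell embryos, and Hist1h2an at 3.27 ± 2.33 CPM in knockout and 2.90 ± 2.16 CPM in wildtype. Their wildtype log2 differences of 4 over 2 cells were 3.28 (SE 0.47) and 3.29 (SE 0.51). Hist1h2ak, annotated by its coding sequence, had 47 counts in wildtype 4-cell and 1 in wildtype 2-cell libraries, a ratio of 48.3 (exact 95% interval 8.26 to 1949). Hist1h2ag had 16 counts against 2, a ratio of 8.23 (1.93 to 73.8). From 4 to 8 cells in wildtype, Hist1h2ap differed by -0.22 (adjusted p = 0.673) and Hist1h2ao by -0.40 (adjusted p = 0.418), neither called. Hist1h2ac, an H2A gene outside this group, had a wildtype difference of -2.15 (SE 0.82) for 4 over 2 cells. It had 33 counts in 6 of 16 knockout and 7 counts in 4 of 16 wildtype 4-cell libraries, and 4 counts in 4 of 15 knockout and 26 counts in 7 of 16 wildtype 8-cell libraries. Its interaction from 4 to 8 cells was -4.11 (SE 1.15). Hist1h2ac was the 1 called of 17 members under the looser filter, where 2.43% of all genes were. It passed that filter mainly through the groups where it was high, 4-cell knockout and 8-cell wildtype. The interaction value is therefore a description and tests nothing. Without 8-cell knockout replicate 7 the call was lost (-4.06). The highest value of Hist1h2ac in any library was 7.29 CPM, in 4-cell knockout replicate 4, and no fit left that library out.

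The H4 genes summed to 1.41 ± 1.82 CPM in knockout and 0.926 ± 0.758 CPM in wildtype MII oocytes, 5.63 ± 2.80 and 5.99 ± 3.94 CPM in knockout and wildtype 2-cell embryos, 6.53 ± 5.01 and 8.84 ± 7.69 CPM in knockout and wildtype 4-cell embryos, and 3.68 ± 2.10 and 6.57 ± 5.31 CPM in knockout and wildtype 8-cell embryos. Hist1h4i was the highest. It had 0, 1.25 and 8.25 CPM in knockout and 0, 2.81 and 19.3 CPM in wildtype 4-cell embryos, and 0, 0.510 and 5.66 CPM in knockout and 0, 1.78 and 11.6 CPM in wildtype 8-cell embryos. Of the knockout libraries, 13 of 16 at 4 cells and 12 of 15 at 8 cells lay below the wildtype median, within overlapping ranges. Knockout over wildtype was -1.25 at 4 cells (SE 0.67, adjusted p = 0.251) and -1.56 at 8 cells (SE 0.61, adjusted p = 0.108), neither called. The wildtype log2 difference of 4 over 2 cells was 2.33 (SE 0.63) for Hist1h4i, 1.58 (SE 0.62) for Hist1h4d and -3.14 (SE 0.60) for Hist1h4c. Hist2h4 had 22 counts in wildtype 2-cell embryos and 2 in wildtype oocytes, a ratio of 16.8 (exact 95% interval 4.12 to 147).

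Hist4h4, the lone gene of the Hist4 cluster, encodes H4 as well. It averaged 0.0164 ± 0.0656 CPM in knockout and 0.103 ± 0.240 CPM in wildtype MII oocytes, and 0.848 ± 1.02 and 0.812 ± 0.763 CPM in knockout and wildtype 2-cell embryos, a wildtype log2 difference of 1.93 (SE 0.60) for 2 cells over MII. At 4 cells it stood at 1.99 ± 3.27 CPM in knockout and 0.588 ± 1.2 CPM in wildtype (1.72, SE 0.85, adjusted p = 0.216). In the Hist3 cluster, the H2A gene Hist3h2a had at most 12 counts in a group, in wildtype MII oocytes, and none in knockout 4-cell embryos. The H2B gene Hist3h2ba had 1 count in wildtype MII oocytes, 1 in knockout 2-cell embryos and 0 in the other 6 groups.

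The H3 genes summed to 3.93 ± 1.29 CPM in knockout and 5.41 ± 2.22 CPM in wildtype 2-cell embryos, and to 1.34 ± 1.58 CPM in knockout and 2.07 ± 2.22 CPM in wildtype 4-cell embryos. Hist1h3f was the highest. It had 0.502, 1.06 and 2.41 CPM in knockout and 0.3, 1.41 and 3.73 CPM in wildtype MII oocytes, and 0, 1.27 and 4.78 CPM in knockout and 0.565, 2.02 and 5.12 CPM in wildtype 2-cell embryos. At 4 cells it was at 0 in 9 of 16 knockout and 11 of 16 wildtype libraries, and the wildtype log2 difference of 4 over 2 cells was -2.65 (SE 0.59). For Hist2h3c1 it was -2.92 (SE 0.64). Knockout over wildtype for Hist1h3f was -0.28 at MII (adjusted p = 0.683), -0.50 at 2 cells (adjusted p = 0.422) and 0.39 at 8 cells (adjusted p = 0.762).

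The H1 genes, whose products bind the linker DNA between nucleosomes, had a summed mean of at most 3.91 CPM in a group. They stood at 0.777 ± 0.666 CPM in knockout and 1.09 ± 1.04 CPM in wildtype MII oocytes, at 2.47 ± 1.25 CPM in knockout and 3.91 ± 2.71 CPM in wildtype 2-cell embryos, and at 1.4 ± 2.13 CPM in knockout and 1.35 ± 1.01 CPM in wildtype 4-cell embryos. Hist1h1a, which encodes H1.1, had 0, 1.08 and 2.19 CPM in knockout and 0, 1.65 and 3.88 CPM in wildtype 2-cell embryos. Its wildtype log2 difference was 2.02 (SE 0.50) for 2 cells over MII and -2.71 (SE 0.55) for 4 over 2 cells. Hist1h1d had 24 counts in wildtype 2-cell and 2 in wildtype 4-cell libraries, a ratio of 11.7 (exact 95% interval 2.90 to 102). Hist1h1c, which encodes H1.2, averaged 0.748 ± 0.853 CPM in knockout and 1.55 ± 1.24 CPM in wildtype 8-cell embryos (-1.01, SE 0.56, adjusted p = 0.287). Hist1h1t, the testis H1, had 1 count in knockout 8-cell and 1 in wildtype 2-cell embryos, and none in the other groups.

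Within a stage the genotypes could be compared for few members. These were too few to set the share called against that of all genes, so it says nothing particular about the members. At MII, 2 members were tested and none was called by edgeR or DESeq2, where 12% of 7680 genes were; 1 had an unadjusted p under 0.05. At 2 cells 1 was tested and edgeR called none, where 17.3% of 8728 genes were; it had an unadjusted p under 0.05 and DESeq2 called it. At 4 cells 1 was tested and none was called by either tool or at an unadjusted p under 0.05, where 16.4% of 7478 genes were. At 8 cells no member passed edgeR's filter, where 11.6% of 7219 genes were called, 617 higher and 218 lower in knockout (444 and 375 with DESeq2). Under the looser filter 0 of 5 members were called at MII, where 9.23% of all genes were, and 0 of 14 at 2 cells, where 10% were. At 4 cells 1 of 11 was called and it was lower in knockout, Hist1h2bc, where 9.77% of all genes were, and at 8 cells 0 of 10, where 8.15% were. At each of MII, 2 cells and 8 cells 1 of these members had an unadjusted p under 0.05. The median difference over the members that passed was 0.02, -0.10, 0.16 and -0.41 at MII, 2, 4 and 8 cells, against 0.01, -0.04, 0.0037 and 0.04 over all genes tested. At 8 cells 9 of the 10 had a negative difference, 0.39 for Hist1h3f being the other one. The share of all genes with a negative difference was not counted, and copies that share sequence need not be separate observations. The remaining members, 62, 53, 56 and 57 of the 67 at the 4 stages, were too low to test with either filter.

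**Figure D5:**
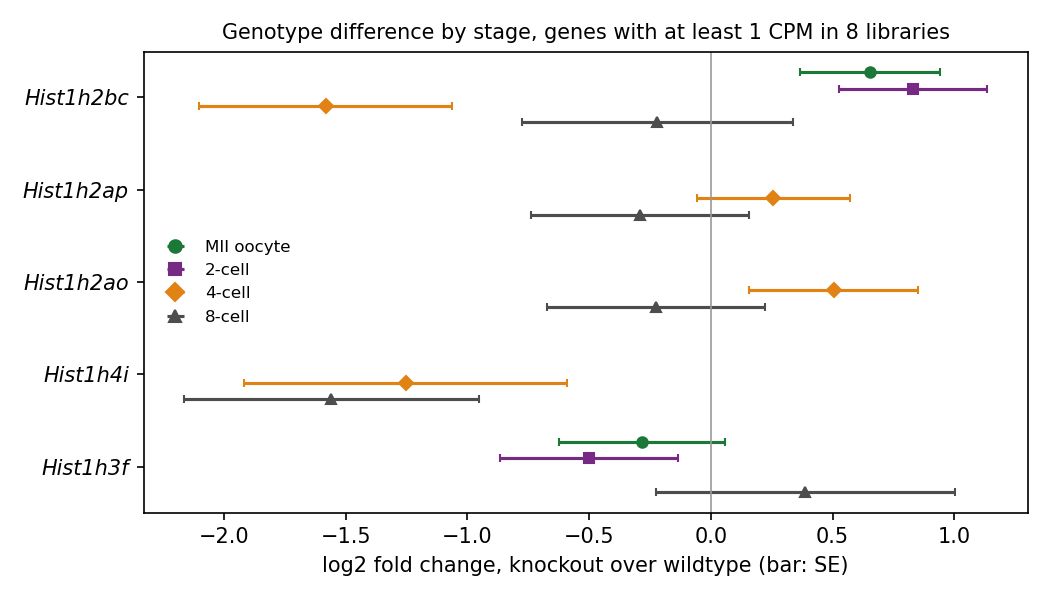
Log2 fold change of knockout over wildtype for 5 abundant members at the stages where they had at least 1 CPM in 8 libraries, with SE bars. Hist1h2bc lies right of 0 in MII oocytes and 2-cell embryos and left of it at 4 cells; Hist1h4i lies left of 0 at 4 and 8 cells, without a call.

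A list of 23 genes that make or process histone mRNA had a few calls between the genotypes at each stage, and Slbp was not called at any stage. It had 6297, 8151 and 13359 CPM in knockout and 5662, 7602 and 8951 CPM in wildtype MII oocytes; the highest value belongs to MII knockout replicate 15. It averaged 4278 ± 1152 CPM in knockout and 3178 ± 1565 CPM in wildtype 2-cell embryos, and 638 ± 105 CPM in knockout and 641 ± 173 CPM in wildtype 4-cell embryos. Knockout over wildtype was 0.17, 0.47, -0.01 and 0.50 at MII, 2, 4 and 8 cells (adjusted p = 0.343, 0.144, 0.954 and 0.292); at 8 cells knockout replicate 7 held 2326 CPM against 258 to 784 CPM in the other knockout libraries. In wildtype Slbp fell from MII to 2 cells with -1.63 (SE 0.18, adjusted p = 1.41e-12) and from 2 to 4 cells with -2.64 (SE 0.19, adjusted p = 2.58e-20).

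The shares of all genes called with the same filter were 12%, 17.3%, 16.4% and 11.6% at MII, 2, 4 and 8 cells, and 1 of 16, 4 of 19, 1 of 18 and 2 of 17 tested genes of this list were called. At MII the 1 called gene was higher in knockout, namely Ncbp2, a subunit of the nuclear cap-binding complex (147 ± 31.6 CPM in knockout and 121 ± 15.5 CPM in wildtype; 0.32, adjusted p = 0.0362). At 2 cells 1 of 19 was higher and 3 were lower in knockout. Eri1, an exonuclease that trims the stem-loop end, was the higher one, at 47.8 ± 11.4 CPM in knockout and 27.9 ± 10.8 CPM in wildtype (0.82, SE 0.17, adjusted p = 0.00114). Hinfp, an activator of H4 transcription, was lower at 3.71 ± 2.65 CPM in knockout and 8.90 ± 4.78 CPM in wildtype (-1.16, SE 0.31, adjusted p = 0.00823). Cstf2t, a cleavage factor, and Ccne1, cyclin E1, were lower as well, by -1.16 and -0.74 (adjusted p = 0.0418 and 0.0433). At 4 cells 1 of 18 was called, Eri1, which was lower at 104 ± 31.6 CPM in knockout and 180 ± 66.8 CPM in wildtype (-0.81, SE 0.18, adjusted p = 0.00168). Its interaction from 2 to 4 cells was -1.60 (SE 0.25, adjusted p = 1.17e-05). At 8 cells 1 of 17 was higher, Ccne2 (cyclin E2) with 1.3 (SE 0.3, adjusted p = 0.00573), and 1 was lower, Ncbp2 with -0.63 (SE 0.18, adjusted p = 0.0154). The list's median difference was 0.16, -0.13, 0.02 and 0.09 at the 4 stages, near those of all genes tested with the same filter (0.02, -0.01, -0.0046 and 0.02).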

How the data were processed

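PolyA RNA of single MII oocytes and 2-, 4- and 8-cell embryos was measured in 128 libraries. Per the submitters' processing notes, the authors used Trimmomatic 0.32, STAR 2.5.1a on mm10 and featureCounts 1.5.1; strand and multi-mapping settings were not stated there. The values are the authors' deposited estimated counts per gene, many of them fractions, which were rounded to whole counts here; family sums used the unrounded values. CPM is a count scaled by the total of its library. Libraries under 100000 counts were left out, which removed 1. Depth was 528377 to 4657857 counts, and intervals and floors cover counting error only.

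Groups came from the labels. Each stage was fitted with edgeR 4.0.16 (TMM, robust quasi-likelihood test, filterByExpr with a minimum count of 10, Benjamini-Hochberg adjustment over all genes tested), and each pair of adjacent stages in 1 fit of 4 groups for the wildtype stage change and the interaction. Named genes are the 8 members with the highest mean, members called, Hist3h2a, Hist3h2ba, Hist4h4, Slbp and Kdm4a. Members named outside this rule are Hist1h1c, Hist1h1t, Hist1h2ah, Hist1h2ai and Hist1h2be. Called genes of the histone mRNA list are named as well. Members and lists were chosen with earlier results of these data known. Alternatives were RLE scaling, DESeq2 1.42.0, other filters, rounding down, a depth covariate, a replicate block and left-out libraries. Replicate numbers 1 to 8 or 9 to 16 alone were fitted for the genotype comparisons only. The fits were tested on simulated data. Transcripts came from GENCODE M21 on mm10 and promoters from RefSeq GRCm38.p6.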

Additional observations from a re-analysis of the deposited data

Results flagged for a closer look

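The genotype difference of Hist1h2bc differed between the 2-cell and the 4-cell stage by a test of the difference itself, the interaction of genotype and stage in edgeR, with -2.37 on the log2 scale (SE 0.59, adjusted p = 0.00343). At 2 cells 15 of 16 knockout embryos exceeded the wildtype median, and at 4 cells 15 of 16 were under it. The adjusted p was 0.000331 to 0.00751 over the settings run, which did not split the replicate numbers.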

How the results depend on the processing

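Results for single members kept their direction and call in 215 comparisons with an alternative, became called in 3, lost the call in 2 and turned sign in 5; counts of called members stayed within 1.5 times in 90 and moved in 20. Without MII knockout replicate 15 the count of members that differed between genotypes at MII was 1 (edgeR's filter or the looser one), and with DESeq2 it was 1 at 2 cells. Without a filter on low counts it was 4 at 4 cells, and with the looser filter 1. For stage changes in wildtype the counts without a filter were 24 from MII to 2 cells, 32 from 2 to 4 cells and 2 from 4 to 8 cells; with the looser filter they were 7, 17 and 1, and 7, 18 and 1 with a doubted library left out as well. The interaction from 4 to 8 cells had 2 called members without a filter and 1 with the looser filter, also without 4-cell knockout replicate 15. Sign turned for values near 0: Hist1h2aa at MII was -0.19 with the replicate block, and Hist1h2bc from 2 to 4 cells was 0.0584 with counts rounded down, 0.0512 without 4-cell knockout replicate 15 (-0.0187 without 2-cell knockout replicate 13), and 0.0435 and 0.043 with the looser filter without each of these. The cause was not tested. Replicate numbers did not pair the samples: same-numbered libraries correlated over 0.1 in 5 of 16, 3 of 16, 4 of 16 and 5 of 15 pairs at the 4 stages, and with the block the Hist1h2bc interaction was -2.57 (adjusted p = 0.00538). The median depth limits single members, most of which had under 1 CPM. The looser filter combined with left-out libraries, and the fits without 4-cell knockout replicate 15 and 8-cell knockout replicate 7, were chosen after seeing the data.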
